A study of Mus musculus with 4 samples.

Results

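Folate and methionine one-carbon genes were examined in late 2-cell (late 2C) mouse embryos. The group holds 8 genes, *Folr1*, *Slc19a1*, *Shmt1*, *Mthfd1*, *Tyms*, *Shmt2*, *Mthfd2* and *Mat2a*, found by symbol among the 26022 genes of the deposited table. They were chosen by function and with the lower *Folr1* level of treated embryos already known, so that the difference between treated and control embryos is given for the 8 genes as a description, without a test. Zygotes of the outbred ICR strain were cultured for 16 h in KSOM medium, either without an inhibitor (Control) or with 200 μM Mdivi-1, a small molecule used to inhibit the mitochondrial fission GTPase DRP1. Each group had 2 libraries, made by Smart-Seq2 amplification of full-length polyadenylated RNA, and the study's methods give 8 to 10 pooled embryos for each group. What solvent control embryos received is not stated, nor is it stated that the 2 libraries came from separate cultures. The p-values below therefore measure the spread among these libraries only, and that spread may be technical.

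Folate carries one-carbon units between enzymes. Serine hydroxymethyltransferases load the unit from serine, and the carried unit is then oxidised, used to make thymidylate and purines, or passed to homocysteine to remake methionine. The pathway runs in parallel in the cytosol and in mitochondria, which exchange serine, glycine and formate. Methionine is activated to S-adenosylmethionine, the methyl donor for histone, DNA and RNA methylation, which are remodelled in cleavage-stage embryos.

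Total counts were 17712075 to 20077326 per library, and the members had 1 to 5059 counts in a library. The filter on low counts kept 14259 genes, among them all 8. Markers of the 2C stage were present in each library, with a summed level over 7 genes (*Zscan4c*, *Zscan4d*, *Zscan4f*, *Zfp352*, *Tcstv3*, *Usp17lc*, *Tmem92*) of 725 and 1080 CPM (counts scaled to a common library size with TMM factors) in controls and 1680 and 2249 CPM in treated embryos. Of 10 oocyte and maternal markers 9 had a positive log2 fold change, and their summed level was 1629 and 3152 CPM in controls against 3614 and 4678 CPM in treated embryos. Of 10 cumulus and granulosa cell markers, *Has2*, *Ptx3*, *Amh* and *Lum* had 0 counts in all libraries. A log2 fold change was positive for 2 others and negative for 2. *Amhr2* had 12.5 and 18.5 CPM in controls against 7.73 and 5.58 CPM, and *Fshr* had counts only in replicate 2 of each group. *Cyp19a1* had 1.23 and 0.459 CPM against 4.83 and 2.35 CPM, and *Tnfaip6* 6.55 and 10.7 CPM against 9.98 and 15.3 CPM. The list summed to 20.3 to 34.8 CPM in controls and 22.5 to 24.1 CPM in treated embryos, which hides these opposite directions. Of the 4 measured sperm and testis markers *Tnp2* had 0 counts in all libraries, and the list summed to 2.36 to 3.09 CPM against 2.61 to 9.88 CPM. Of 4 markers of later lineages *Cdx2* had 0 counts, and their sum was 1.18 to 5.10 CPM against 8.27 to 8.76 CPM. Both treated libraries lay above both controls for 6 of the 7 2C markers, all but *Tcstv3*, and for 5 of the 10 maternal markers. *Zp3* lay below both controls, at 198 and 270 CPM against 149 and 99.2 CPM. *Oosp1* held much of the maternal sum, at 956 and 2368 CPM against 2401 and 3198 CPM. Over all genes tested 26.1% lay higher and 23.9% lower without overlap. The part of the maternal and 2C markers in the results below was not tested.

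The log2 fold change of treated against control embryos was negative for 5 of the 8 genes and positive for 3, against 48.7% and 51.3% of all genes tested. The members' median was -0.55, against 0.03 for all 14259 genes tested. Both treated libraries lay below both controls for *Folr1*, *Shmt1*, *Mthfd1* and *Mat2a*, where 23.9% of all genes tested did so, and above both controls for *Mthfd2*, where 26.1% did so. The groups overlapped for *Slc19a1*, *Tyms* and *Shmt2*. With libraries scaled by their totals alone, *Shmt1* and *Mat2a* overlapped too, and *Shmt2* did not. Under that scaling 19.8% of all genes tested lay lower and 28.5% higher without overlap. Since the 8 genes were picked with this comparison known, nothing is read from their counts.

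**Figure D1:**
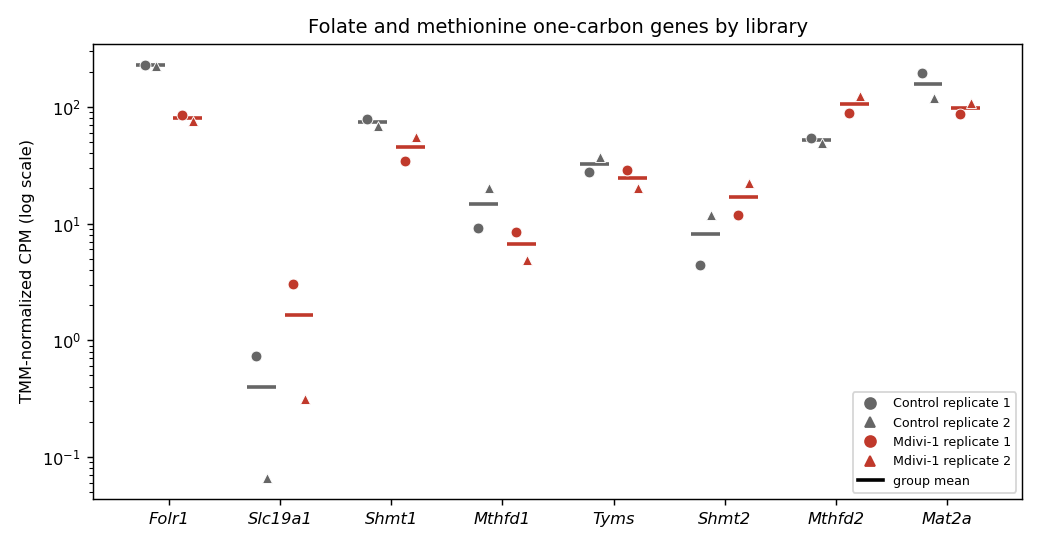
Level of the 8 one-carbon genes (x axis) in TMM-normalized CPM on a log scale (y axis) in each library, with circles for replicate 1, triangles for replicate 2 and bars at the group means. For *Folr1* the controls lie at 230 and 226 CPM and the treated libraries at 84.6 and 75.1 CPM, while *Mthfd2* lies at 54.5 and 49.3 CPM against 89.4 and 124 CPM.

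*Folr1* and *Slc19a1* encode 2 routes of folate uptake. *Folr1*, the folate receptor alpha, is anchored in the plasma membrane by glycosylphosphatidylinositol, binds folate tightly and is internalised with it. The gene (ENSMUSG00000001827) lies on the minus strand of chromosome 7 from 101858331 to 101870788 of GRCm38. The level was 230 CPM in control replicate 1 and 226 CPM in control replicate 2, against 84.6 CPM in Mdivi-1 replicate 1 and 75.1 CPM in Mdivi-1 replicate 2. The libraries of each group lay close together and the groups were well apart, with means of 228 ± 3.28 CPM (SD, n = 2 libraries) and 79.8 ± 6.74 CPM (SD, n = 2). The mean was 2.86-fold lower in treated embryos, and the log2 fold change was -1.51 (standard error 0.29). CPM are shares of a library, so that fewer transcripts per embryo and a larger pool of other RNA cannot be told apart, and the same holds for each gene below. *Folr1* overlaps *Anapc15* on the opposite strand but shares 0 exonic bases with it.

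*Slc19a1* (ENSMUSG00000001436; chromosome 10, 77032241 to 77061002, plus strand), the reduced folate carrier, exchanges folate for organic phosphates. Few counts were found, with 16 in control replicate 1, 1 in control replicate 2, 56 in Mdivi-1 replicate 1 and 6 in Mdivi-1 replicate 2. A single treated library accounted for most of these counts, and the groups overlapped. The levels were 0.728 and 0.0656 CPM against 3.01 and 0.313 CPM, with a log2 fold change of 2.03 (standard error 2.01) that was -0.35 without Mdivi-1 replicate 1.

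The pattern across libraries closest to that of *Folr1* was sought among 6792 named genes with a mean of at least 10 CPM. Gene models with Gm or Rik symbols or no symbol were left out. The measure was the distance between log2 values (pseudocount 1) centred on each gene's mean over the 4 libraries. The nearest were *Gja1*, the gap junction protein connexin 43, at a distance of 0.0801, *Pafah1b2* (0.107), a catalytic subunit of platelet-activating factor acetylhydrolase, *Plpp3* (0.110), a lipid phosphate phosphatase, *Ndufb7* (0.119), a subunit of respiratory complex I, and *Pitpnc1* (0.123), a phosphatidylinositol transfer protein. *Gja1* had 159 and 149 CPM in controls and 53.9 and 50.1 CPM in treated embryos. These 5 genes were selected for their likeness in the same 4 libraries, and the distances only describe it.

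*Shmt1* and *Mthfd1* act in the cytosol. *Shmt1*, the cytosolic serine hydroxymethyltransferase, moves a carbon from serine to tetrahydrofolate. The gene (ENSMUSG00000020534) lies on chromosome 11 from 60788104 to 60811718 on the minus strand of GRCm38. It had 78.6 and 69.0 CPM in controls and 34.5 and 55.6 CPM in treated embryos, with means of 73.8 ± 6.81 CPM and 45.1 ± 14.9 CPM (SD, n = 2 libraries each). The treated libraries were both lower but differed from each other by more than the controls did. The log2 fold change was -0.71 (standard error 0.35), and it ranged from -1.11 without Mdivi-1 replicate 2 to -0.41 without Mdivi-1 replicate 1. Of the 3883 exonic bases of *Shmt1*, 184 are shared with *Smcr8* on the other strand, and Smart-Seq2 reads keep no strand.

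*Mthfd1* (ENSMUSG00000021048; chromosome 12, 76255298 to 76319803, plus strand) encodes a trifunctional enzyme that interconverts formate and the folate-bound one-carbon units. It had 9.19 and 20.1 CPM in controls and 8.53 and 4.85 CPM in treated embryos. Control replicate 1 and Mdivi-1 replicate 1 were near each other, and the separation came from the other libraries of the groups. The log2 fold change of -1.13 (standard error 0.64) became -0.48 without control replicate 2. *Gm47525* on the other strand shares 37 of its exonic bases.

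*Tyms*, thymidylate synthase, uses methylene-tetrahydrofolate to methylate dUMP and so supplies a DNA precursor. The gene (ENSMUSG00000025747) lies on chromosome 5 from 30058202 to 30073617 on the minus strand. It had 27.9 and 37.1 CPM in controls and 29.0 and 20.0 CPM in treated embryos, which overlapped. The log2 fold change was -0.41 (standard error 0.40), and leaving out Mdivi-1 replicate 2 gave -0.18, control replicate 2 -0.20 and Mdivi-1 replicate 1 -0.70. The annotation also holds a pseudogene, *Tyms-ps*, and reads that map to both are uncertain.

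*Shmt2* and *Mthfd2* are the mitochondrial counterparts. *Shmt2* (ENSMUSG00000025403; chromosome 10, 127517123 to 127522444, minus strand), the mitochondrial serine hydroxymethyltransferase, had 4.41 and 11.9 CPM in controls and 11.9 and 22.2 CPM in treated embryos. Control replicate 2 and Mdivi-1 replicate 1 were level, so that the groups met at one value. Over both groups it came to 1.06 on the log2 scale (standard error 0.65), but to 0.51 when control replicate 1 was left out, 0.53 when Mdivi-1 replicate 2 was and 1.93 when control replicate 2 was. *Ndufa4l2* on the other strand shares 32 of its 3109 exonic bases.

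*Mthfd2* (ENSMUSG00000005667; chromosome 6, 83305691 to 83325908, minus strand), a mitochondrial methylene-tetrahydrofolate dehydrogenase and cyclohydrolase, had 54.5 and 49.3 CPM in controls and 89.4 and 124 CPM in treated embryos. Both treated libraries were above both controls, by more than the gap between the controls. The means were 51.9 ± 3.67 CPM and 107 ± 24.3 CPM (SD, n = 2 libraries each), 2.05-fold higher in treated embryos. The log2 fold change of 1.04 (standard error 0.32) stayed between 0.77 and 1.25 under all 12 alternatives run, including each library left out in turn.

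*Mat2a* leads from methionine to S-adenosylmethionine: it encodes the catalytic subunit of the methionine adenosyltransferase that is used outside the adult liver. The gene (ENSMUSG00000053907) lies on chromosome 6 from 72432799 to 72439558 on the minus strand. It had 197 and 119 CPM in controls and 87.2 and 107 CPM in treated embryos. Control replicate 1 stood above the other 3 libraries, and control replicate 2 was close to Mdivi-1 replicate 2. The log2 fold change was -0.70 (standard error 0.34) and was -0.29 without control replicate 1. The noncoding *Particl* gene on the opposite strand shares 508 of the 4486 exonic bases of *Mat2a*.

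Levels of different genes were compared per kilobase of exon, using the union of annotated exons of each gene. In controls *Folr1* had the highest level of the 8 genes, at 99.2 ± 1.43 CPM per kb (SD, n = 2 libraries). It was followed by *Mat2a* (35.2 CPM per kb), *Shmt1* (19.0), *Mthfd2* (14.9), *Tyms* (5.34), *Mthfd1* (3.29), *Shmt2* (2.63) and *Slc19a1* (0.0855). The libraries of neighbouring genes in this order overlapped for *Mthfd1* and *Shmt2* and lay apart for the others. In treated embryos the order was *Folr1* (34.8 CPM per kb), *Mthfd2* (30.5), *Mat2a* (21.7), *Shmt1* (11.6), *Shmt2* (5.48), *Tyms* (4.02), *Mthfd1* (1.51) and *Slc19a1* (0.357). There the libraries of *Folr1* and *Mthfd2* overlapped, as did those of *Shmt2* and *Tyms*. *Mthfd2* was thus below *Shmt1* and *Mat2a* in controls and above both in treated embryos, on the scale of length-adjusted levels. Union lengths overstate the transcript where long rare isoforms are annotated, so that the order depends on the annotation.

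**Figure D2:**
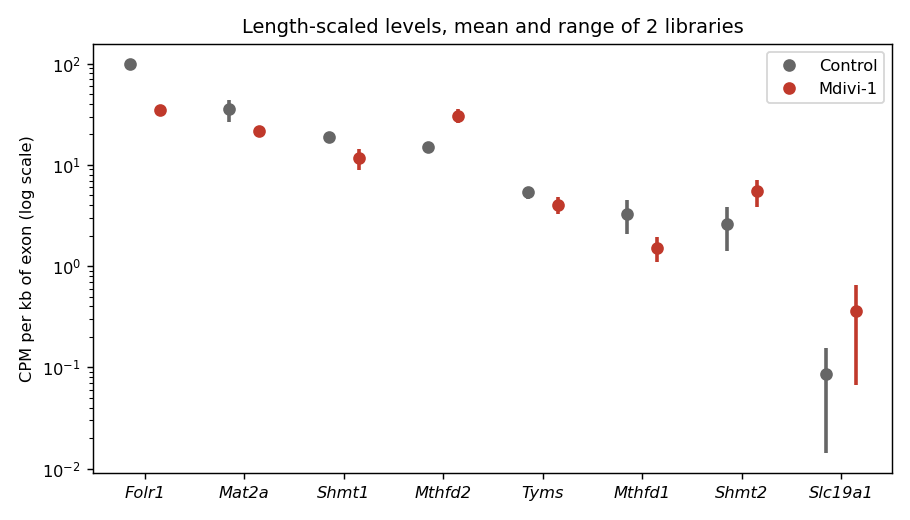
Level in CPM per kb of exon (log scale, y axis) of each gene (x axis, ordered by the control mean), with points at the group means and lines from the lower to the higher of the 2 libraries. *Folr1* lies at 99.2 in controls and 34.8 in treated embryos, where *Mthfd2* comes next at 30.5.

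The cytosolic and mitochondrial enzymes form 2 pairs that carry out related steps, *Shmt1* with *Shmt2* and *Mthfd1* with *Mthfd2*. The share of a pair's counts that comes from the mitochondrial gene does not depend on how libraries are scaled. These shares were computed after the values of the genes had been seen, and they are a description. They combine the values already given for the same genes in the same libraries, so that they are no second result. *Shmt2* made up 5.32% of *Shmt* counts in control replicate 1 (95% Wilson interval 4.38 to 6.44%) and 14.8% in control replicate 2 (12.9 to 16.9%). It made up 25.7% in Mdivi-1 replicate 1 (22.9 to 28.7%) and 28.5% in Mdivi-1 replicate 2 (26.3 to 30.8%). Both treated libraries were above both controls, with means of 27.1% ± 1.99 and 10.04% ± 6.68 (SD, n = 2 libraries each). Of these genes *Shmt1* lay lower without overlap, while *Shmt2* was level in control replicate 2 and Mdivi-1 replicate 1. Such separation is common, as 26.1% of single genes tested lay higher and 23.9% lower without overlap. The rate among shares of gene pairs was not computed. *Mthfd2* made up 85.6% of the counts of *Mthfd1* and *Mthfd2* together in control replicate 1 (83.6 to 87.3%) and 71.1% in control replicate 2 (68.2 to 73.7%). The share was 91.3% in Mdivi-1 replicate 1 (89.9 to 92.5%) and 96.2% in Mdivi-1 replicate 2 (95.4 to 96.9%). For this pair the treated libraries had to be higher, since *Mthfd2* lay higher and *Mthfd1* lower without overlap. The nearest libraries of the groups, control replicate 1 and Mdivi-1 replicate 1, were closer together than the 2 controls were. The intervals cover counting error only, and amplified reads are not independent molecules. With 2 libraries against 2, an exact permutation test cannot pass a threshold of 0.05, and none was run.

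**Figure D3:**
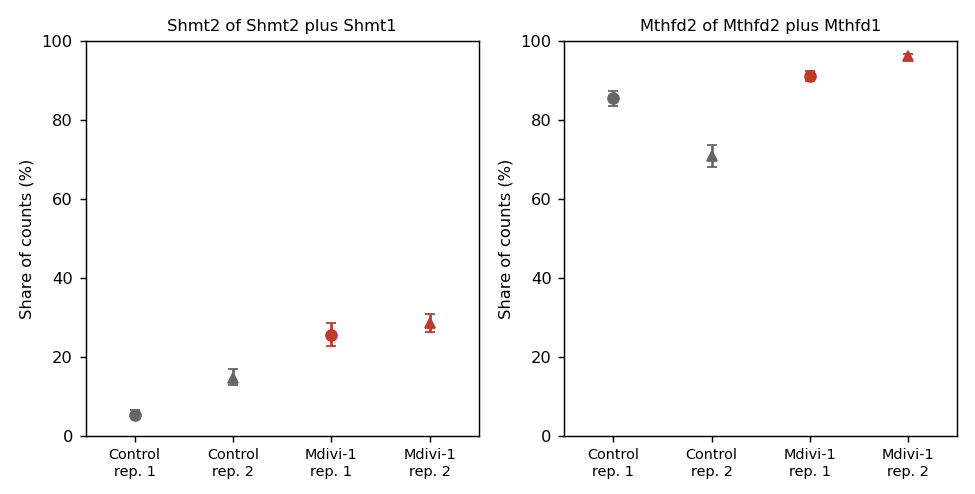
Share of counts in percent (y axis) that come from the mitochondrial gene of each pair, by library (x axis), with bars for the 95% Wilson interval of counting error. *Shmt2* lies at 5.32% and 14.8% in controls and at 25.7% and 28.5% in treated libraries, and *Mthfd2* lies at 85.6% and 71.1% against 91.3% and 96.2%.

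The promoters of these pairs and of *Tyms* are shown because the paired genes differ in their levels and *Tyms* alone held a motif that was searched. Sequences are the 250 bases before the RefSeq start site on GRCm38.p6, 5′ to 3′ on the strand of the gene, and the capitals mark the E-box CACGTG.
Shmt1, chr11:60811266-60811515, minus strand: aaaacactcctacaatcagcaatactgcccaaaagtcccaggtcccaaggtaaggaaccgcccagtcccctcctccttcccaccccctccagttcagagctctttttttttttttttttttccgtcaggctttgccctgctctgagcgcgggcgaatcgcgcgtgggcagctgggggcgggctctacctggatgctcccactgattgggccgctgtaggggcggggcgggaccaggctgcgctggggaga
Shmt2, chr10:127522445-127522694, minus strand: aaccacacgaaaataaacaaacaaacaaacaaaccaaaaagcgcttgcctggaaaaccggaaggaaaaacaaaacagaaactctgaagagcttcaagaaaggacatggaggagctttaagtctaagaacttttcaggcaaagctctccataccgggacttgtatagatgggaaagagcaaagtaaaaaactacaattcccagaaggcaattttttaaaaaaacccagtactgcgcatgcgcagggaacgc
Mthfd1, chr12:76254982-76255231, plus strand: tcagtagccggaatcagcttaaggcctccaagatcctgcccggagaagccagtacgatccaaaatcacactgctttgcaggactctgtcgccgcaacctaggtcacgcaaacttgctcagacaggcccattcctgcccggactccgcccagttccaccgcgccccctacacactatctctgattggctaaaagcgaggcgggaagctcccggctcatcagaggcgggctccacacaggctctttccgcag
Mthfd2, chr6:83317605-83317854, minus strand: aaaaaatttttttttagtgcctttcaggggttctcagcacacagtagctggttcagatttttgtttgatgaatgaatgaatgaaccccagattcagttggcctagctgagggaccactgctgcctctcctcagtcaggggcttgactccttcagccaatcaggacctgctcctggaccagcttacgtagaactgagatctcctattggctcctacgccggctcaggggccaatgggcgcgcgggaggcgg
Tyms, chr5:30073626-30073875, minus strand: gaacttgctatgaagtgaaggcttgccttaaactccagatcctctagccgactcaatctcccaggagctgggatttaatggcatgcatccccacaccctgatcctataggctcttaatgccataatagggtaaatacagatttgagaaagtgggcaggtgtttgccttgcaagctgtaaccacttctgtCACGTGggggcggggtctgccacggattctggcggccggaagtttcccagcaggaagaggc

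RefSeq entries were found for 7 of the 8 genes, all but *Folr1*, with 2 start sites for *Slc19a1*. The start sites of *Mthfd2*, *Shmt1* and *Slc19a1* used here lie inside the longer GENCODE genes. Both strands were searched for TGATGNAA, the composite site of C/EBP and ATF factors, for the E2F sites TTTCGCGC and TTTGGCGC, and for CACGTG. These letters occur in 3.45%, 0.654% and 6.02% of 32851 promoters of the same length. The first 2 motifs were in none of the 8 windows of the members, and CACGTG was in that of *Tyms*, beginning 61 bases before the start site, with no overlap with another motif. The windows of *Shmt2* and *Shmt1* differ in base composition, with 40.8% G and C and 7 CpG dinucleotides against 60.0% and 13. That of *Mthfd2* has 52.4% and 7 against 59.2% and 15 in *Mthfd1*. The median over all promoters was 52.4% and 6, and *Mat2a* had 67.6% and 29. A match of letters is a description of the window and not a site of binding.

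Over all 14259 genes edgeR's quasi-likelihood test called 0 at an adjusted p under 0.05, where the likelihood ratio test called 870, limma-voom 202 and DESeq2 867 (3.28% higher and 2.81% lower). At an unadjusted p under 0.05 edgeR gave 1179 higher and 1089 lower genes, or 1287 and 769 when scaled by library totals.

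Other genes of the pathway were taken from 10 lists with 67 genes, of which 66 were in the table and 63 passed the filter on low counts. A negative log2 fold change was found in 48 and a positive one in 15 of the 63, with a median of -0.39, where 48.7% of all genes tested were negative. At an unadjusted p under 0.05 by edgeR 8 were lower and 2 higher (against 7.64% and 8.27% of all genes tested), and 3 were lower and 4 higher when scaled by library totals. Without Mdivi-1 replicate 1 there were 4 lower and 0 higher genes, without Mdivi-1 replicate 2 there were 7 and 1, and without control replicate 1 or 2 there were 6 and 4 or 8 and 4. By edgeR 0 passed an adjusted p of 0.05, and DESeq2 called 2, *Bhmt* and *Ggh*, both of which reached the minimum count in 2 libraries through the controls. Both are also among the 8 lower genes, and neither is read as support. The lists were written from textbook pathway membership with earlier results of these data known, so that their direction is no independent evidence.

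**Figure D4:**
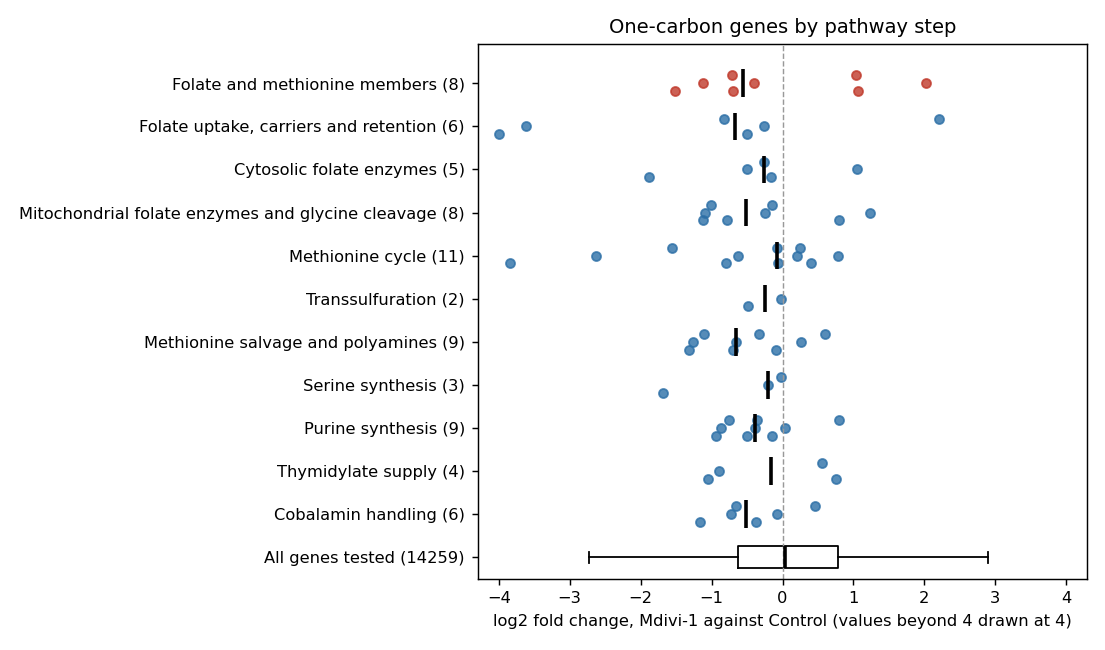
Log2 fold change (x axis) of each one-carbon gene as a dot, by pathway step (y axis, with the number of genes), with the 8 members in red and values beyond 4 drawn at 4. Black bars are medians, at -0.55 for the members and 0.03 for all 14259 genes, whose box gives the quartiles with whiskers to 1.5 times the box length and no outliers drawn.

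In the methionine cycle 7 of 11 genes were negative (median -0.08), with 1, *Bhmt*, lower at an unadjusted p under 0.05, where 7.64% of all genes tested were. *Bhmt*, which remethylates homocysteine with betaine in place of folate, had 20.8 and 23.1 CPM in controls and 2.58 and 0.469 CPM in treated embryos. The treated libraries were both far below the controls, though they differed from each other, at a log2 fold change of -3.85 with a standard error of 0.84. *Bhmt* reached the minimum count in both controls but in only 1 treated library (48 and 9 counts). No p is therefore given for it, and its call is not read as support. Its paralog *Bhmt2* had 13.5 and 19.7 CPM against 8.53 and 2.71 CPM, with a log2 fold change of -1.56 and edgeR adjusted p = 0.324. Reads shared between these paralogs make the value of each uncertain. *Mtrr*, which reactivates the folate-dependent methionine synthase, had a log2 fold change of -0.63 and did not pass, and *Cth*, an enzyme of transsulfuration, had -0.48.

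Of the 6 genes of folate uptake, carriers and retention, 1 was lower and 1 higher at an unadjusted p under 0.05, where 7.64% and 8.27% of all genes tested were. Both are named here after their values were seen, and the lower one, *Ggh*, is not read as support. *Ggh*, which trims the polyglutamate tail that keeps folate in the cell, had 1.77 and 5.91 CPM in controls and 0.0537 and 0.0521 CPM in treated embryos. Each treated library had 1 count, 2 in all against 129 in the controls. It passed the filter on low counts through the controls alone and was picked for its values, so that no p is given for it. The higher one, *Izumo1r*, is an egg surface receptor for sperm in the folate receptor family, and its level is not read as folate uptake. It had 2.05 and 1.84 CPM against 11.1 and 6.88 CPM, with edgeR adjusted p = 0.253. *Slc25a32* and *Fpgs*, which import folate into mitochondria and add its polyglutamate tail, had log2 fold changes of -0.50 and -0.83 and were not called.

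Among the mitochondrial folate and glycine cleavage genes, 6 of 8 were negative (median -0.51). *Amt*, the aminomethyltransferase of the glycine cleavage system, had 85.8 and 38.3 CPM in controls and 29.5 and 27.4 CPM in treated embryos, with control replicate 1 standing apart and edgeR adjusted p = 0.272. *Gldc*, the glycine decarboxylase of the same system, had a log2 fold change of -0.78 and was not called, and *Dmgdh*, which demethylates dimethylglycine, had 0.80. *Shmt2* and *Mthfd2* had positive log2 fold changes, while *Mthfd1l*, the next mitochondrial enzyme of the route to formate, had -1.01 at 5.73 and 4.59 CPM against 1.02 and 4.12 CPM, was not called by edgeR or DESeq2, and is outside the naming rule, chosen after its values were seen. Of 5 cytosolic folate enzymes 4 were negative and 0 were called by edgeR or DESeq2, with *Gart* at -0.50 and *Mthfs*, which returns 5-formyl folate to use, at 1.06.

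Of 9 genes of purine synthesis, 2 were lower and 1 higher at an unadjusted p under 0.05, where 7.64% and 8.27% of all genes tested were. *Ppat*, the enzyme of the committed step, had 404 and 649 CPM in controls and 229 and 345 CPM in treated libraries, a log2 fold change of -0.87 (edgeR adjusted p = 0.303). *Impdh2*, which starts the branch to guanine nucleotides, had 165 and 151 CPM against 63.1 and 102 CPM (edgeR adjusted p = 0.244). *Adss2*, which starts the branch to AMP and is listed under its older symbol Adss, had 85.3 and 86.7 CPM against 168 and 130 CPM (edgeR adjusted p = 0.259). In thymidylate supply *Dtymk*, the kinase after *Tyms*, had 128 and 127 CPM against 73.6 and 63.5 CPM (log2 fold change -0.89, edgeR adjusted p = 0.219). *Dut* and *Dctd*, which supply dUMP to *Tyms*, had log2 fold changes of 0.56 and 0.75 and were not called.

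**Figure D5:**
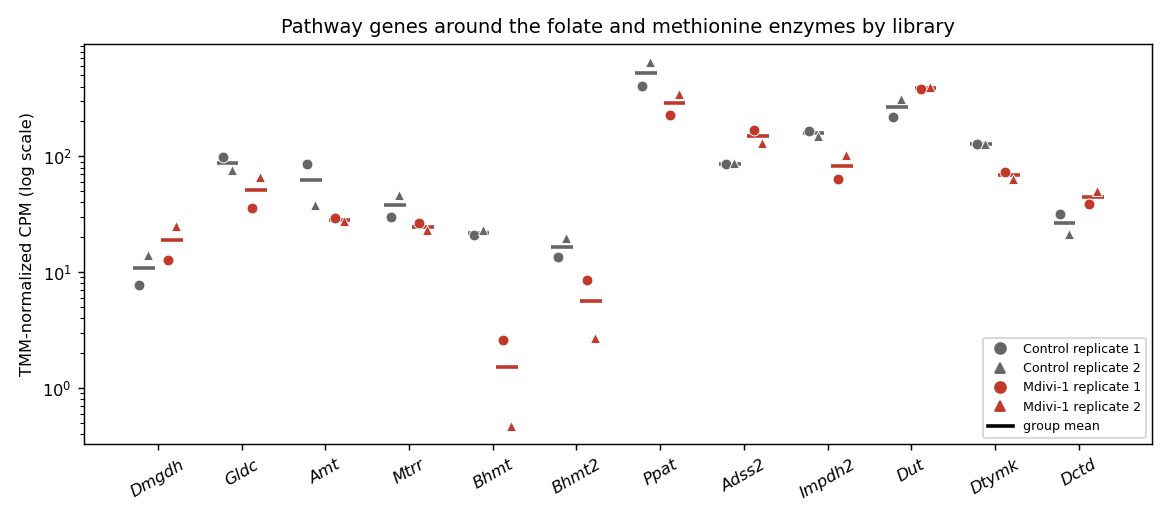
Level in TMM-normalized CPM on a log scale (y axis) of 12 named genes from the glycine cleavage, methionine, purine and thymidylate steps (x axis) in each library, with bars at the group means. *Bhmt* lies at 20.8 and 23.1 CPM in controls and at 2.58 and 0.469 CPM in treated libraries.

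Of the remaining lists, *Srm*, the spermidine synthase, had 31.7 and 30.2 CPM in controls and 7.46 and 18.3 CPM in treated embryos (edgeR adjusted p = 0.288). *Odc1*, the first enzyme of polyamine synthesis, and *Adi1*, of methionine salvage, had log2 fold changes of -0.66 and -1.10 and were not called. *Phgdh*, which commits a glycolytic intermediate to serine, had 13.2 and 12.2 CPM against 4.99 and 2.92 CPM (edgeR adjusted p = 0.267) and is named after its values were seen. *Psat1*, the next enzyme of serine synthesis, had 260 and 236 CPM against 239 and 191 CPM, which overlapped. Among 6 genes of cobalamin handling 0 were called by edgeR or DESeq2, with *Cd320*, the receptor for transcobalamin, at a log2 fold change of -0.66 and *Mmadhc* at 0.46.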

How the data were processed

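RNA of late 2C embryos was measured in 2 control and 2 Mdivi-1 libraries, grouped by their titles. The authors trimmed reads with cutadapt 1.16, mapped them with STAR to mm10 and made the raw counts per gene with STAR GeneCounts and GENCODE. The deposited table also holds a signal per library (count divided by a size factor) and the authors' DESeq2 log2 fold changes with standard errors, Wald score and p-values, none of which were used. Coordinates come from GENCODE M21 on GRCm38, since only 614 of 25995 genes have the same ends in the table.

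Of 26022 genes, 14259 passed filterByExpr (minimum count 10) of edgeR 4.0.16. They were scaled by TMM (factors 0.834 to 1.10) and tested two-sided with the quasi-likelihood test in R 4.3.3 and Benjamini-Hochberg adjustment. Standard errors were worked back from that test. Alternatives were DESeq2 1.42.0, limma-voom 3.58.1, the likelihood ratio test, other scalings and filters, the replicate block and each library left out. Members and lists were chosen with earlier results of these data known. Named genes are the members, up to 3 genes per list with at least 10 CPM and the smallest p, and the 5 genes nearest to *Folr1*. The report says where a gene outside this rule is named. *Adss2* was matched through an older symbol, *Gcsh* was not analysed here, and *Ftcd*, *Aldh1l1* and *Mthfd2l* fell under the filter. A gene that the naming rule gives is not reported here.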

Additional observations from a re-analysis of the deposited data

How the results depend on the processing

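By edgeR 0 genes passed the adjusted threshold, and 819 did with no low-count filter, 867 by DESeq2, 870 by the likelihood ratio test and 202 by limma-voom. Leaving out a library gave 0 to 10, the 10 without control replicate 2. Of the other pathway genes 2 passed with no low-count filter, by DESeq2 and by the likelihood ratio test. At an unadjusted p under 0.05, leaving out a library gave 566 to 1696 higher and 502 to 1263 lower genes, with 566 and 502 without Mdivi-1 replicate 1 and 638 higher without Mdivi-1 replicate 2. The pathway genes then ranged from 0 to 4 higher and from 4 to 8 lower, and library totals gave 4 and 3. Library totals moved the median of all genes from 0.03 to 0.14. The median log2 fold change of the 8 members, -0.55, was -0.436 with library totals, -0.7145 with at least 1 CPM in 2 libraries, which leaves out *Slc19a1*, and -0.485 to -0.340 without a library. Scaling by totals, tried after the data were seen, left 2 members higher and 2 lower without overlap. Of all genes tested 28.5% were higher and 19.8% lower in this way under that scaling. *Slc19a1* ran from -0.35 without Mdivi-1 replicate 1, a reversal, to 4.52 without control replicate 1, and the other 7 members kept their sign in all 12 alternatives. The cause of these shifts was not tested. Fits without a library take the spread from the other group and assume that the lone library varies like it. Same-numbered libraries did not deviate together (r = 0.0077 across genes), and with the replicate block 0 genes passed the adjusted threshold, 1122 were higher and 919 lower at an unadjusted p under 0.05, 3 and 10 pathway genes were so, and the members' median was -0.539. Depth limits *Slc19a1* and *Ggh*, which had as few as 1 count in a library.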
